A study of Zea mays with 12 samples.

Results

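akh2 and ACR4 are 2 maize (Zea mays) genes annotated to amino acid metabolism, and they were taken by their exact symbols from a table of 99 genes measured by RNA sequencing in seed embryos. They were selected on measured values of these data, akh2 on its line difference and ACR4 on its higher level at 10 °C. Those contrasts are therefore described here without a test, and the tests are kept for the temperature contrast of akh2 and the line contrast of ACR4. Whether the change with temperature differed between the lines was also tested for each gene, from the same group means as the described contrasts. The embryos were from B73, an inbred line labelled as resistant to low temperature, and Mo17, an inbred line labelled as sensitive to it, both in the germination period. Seeds imbibed in germination paper for 2 h, either under the normal condition of 25 °C or in the cold at 10 °C, which gave 4 groups (B73 at 25 °C, B73 at 10 °C, Mo17 at 25 °C and Mo17 at 10 °C) with 3 biological replicates each, 12 libraries in all. No other treatment or genotype is given in the labels.

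akh2 encodes a bifunctional enzyme of the chloroplast, aspartate kinase and homoserine dehydrogenase in a single protein. Plants make lysine, threonine, methionine and isoleucine from aspartate; aspartate kinase opens this route, and homoserine dehydrogenase acts on the branch that leads to threonine and methionine and away from lysine. In plants the bifunctional enzyme is inhibited by threonine, the end product of its own branch. ACR4 is annotated in the table to the regulation of amino acid metabolism, to the response to cytokinin, and to the cytosol, chloroplast and plasmodesma. In Arabidopsis, ACR names a family of proteins with repeats of the ACT domain, a domain that binds amino acids and is also found in aspartate kinases. The table describes the maize gene by its symbol alone.

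In the coordinates of B73 RefGen_v4, akh2 lies on chromosome 2 at 177655848 to 177676022 (minus strand), a span of 20175 bp with 5 transcripts in the table. ACR4 lies on chromosome 1 at 252662557 to 252665834 (plus strand), a span of 3278 bp with 1 transcript. RefSeq, in its gene table for the NAM assembly of B73, lists a gene of the same enzyme family, AKHSDH1, on chromosome 4. AKHSDH1 was not analysed here, and no source used here says whether the authors' counting divided reads between it and akh2.

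Levels are given in FPKM, a measure of fragments that corrects for the length of the gene and the size of the library, as the authors deposited them. The embryo form of the ADP-glucose pyrophosphorylase small subunit, Agpsemzm, stood at 122 to 149 FPKM in the B73 libraries and at 92.9 to 102 FPKM in those of Mo17. Its log2 difference between Mo17 and B73 was -0.47 ± 0.08 at 25 °C and -0.39 ± 0.08 at 10 °C (SE). Whether this difference bears on those of akh2 and ACR4 was not tested. The endosperm starch branching enzyme ae1 was listed at 0 in all 12 libraries. A second row of the same name, ae1_1, also annotated as a starch branching enzyme, stood at 0.33 to 0.7 FPKM in the B73 libraries and at 2.3 to 4.36 FPKM in those of Mo17, and its part in the line differences was not tested. Relative sequencing depth ran from 0.820 to 1.08 over the libraries, and absolute depth is unknown. 1 library, B73 at 10 °C replicate 1, correlated at 0.969 and 0.974 with the other 2 of its group, which correlated at 0.997 with each other (Pearson r over 76 genes on the log2(FPKM + 1) scale; genes do not count as independent replicates). The tests covered the 76 of 99 genes that reached 1 FPKM in 3 libraries or more. The symbols of the tested genes all begin with the letter A. Ranks, medians, shares and adjusted p are therefore relative to this set and not to all maize genes. akh2 and ACR4 both passed, ACR4 through all 12 libraries and akh2 through 7, namely all 6 of Mo17 and 1 of B73 at 25 °C.

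akh2 was a low transcript in B73 and several times higher in Mo17. In B73 at 25 °C its 3 libraries stood at 0.81, 0.90 and 1.21 FPKM, and in B73 at 10 °C at 0.69, 0.21 and 0.73 FPKM. In Mo17 at 25 °C the libraries stood at 4.91, 3.62 and 6.13 FPKM, and in Mo17 at 10 °C at 2.83, 4.74 and 4.47 FPKM. Each of the 6 Mo17 libraries was higher than each of the 6 B73 libraries, whatever the temperature. The share of tested genes with such a split over both temperatures was not counted. Within a temperature, the lines lay apart with Mo17 higher in 40.8% of them at 25 °C and 35.5% at 10 °C. In whole embryos, fewer cells that express a gene and less RNA per cell cannot be told apart. The deposited counts behind these values were 24 to 126 in B73 and 271 to 591 in Mo17, so that the B73 levels rest on the fewest reads.

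**Figure D1:**
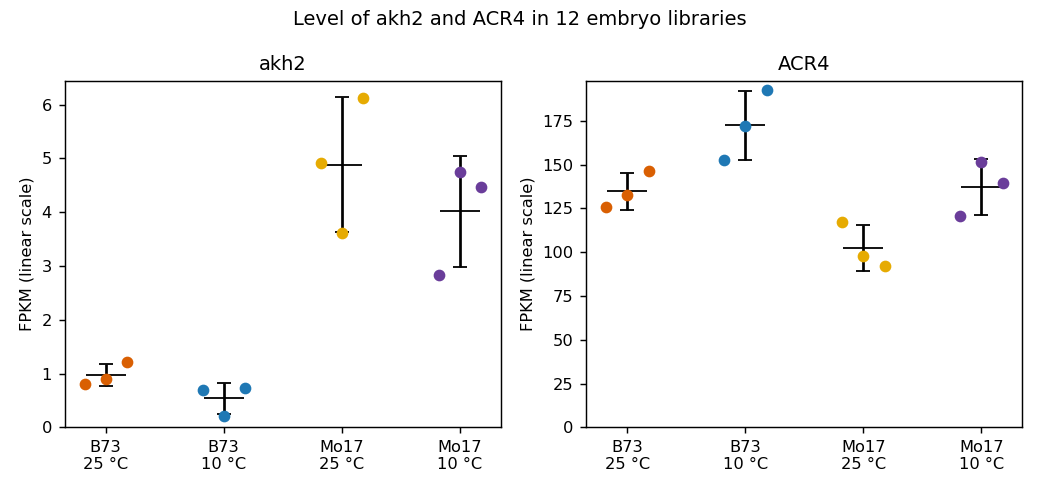
FPKM of akh2 (left) and ACR4 (right) in each of the 12 libraries (points), by line and temperature, with the mean and SD of each group of 3 (black bars), on linear axes that start at 0. The 6 Mo17 libraries of akh2 lie at 2.83 to 6.13 FPKM, above the 6 of B73, while ACR4 ranges from 92.0 to 193 FPKM, with its lowest group in Mo17 at 25 °C and its highest in B73 at 10 °C. akh2 was chosen for its line difference and ACR4 for its level at 10 °C.

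The means of akh2 stood in the order Mo17 at 25 °C, 4.89 ± 1.26 FPKM (mean ± SD, n = 3 in this and the following groups), Mo17 at 10 °C, 4.01 ± 1.03 FPKM, B73 at 25 °C, 0.973 ± 0.210 FPKM, and B73 at 10 °C, 0.543 ± 0.289 FPKM. The ranges of the 2 Mo17 groups overlapped, and those of the 2 B73 groups did not. Mean FPKM was 5.02-fold higher in Mo17 than in B73 at 25 °C and 7.39-fold higher at 10 °C. The fitted log2 differences were 2.31 ± 0.41 (SE) and 2.85 ± 0.42 (SE). Both are given as a description, since the gene was chosen for them. Without B73 at 10 °C replicate 1, the library that stood apart, the log2 difference at 10 °C was 3.06 ± 0.48 (SE).

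Among the 76 tested genes the line difference of akh2 ranked 6th from the highest at 25 °C and 4th at 10 °C. Since akh2 was chosen for this difference and passed the filter mainly through Mo17, its ranks are a description. At 25 °C 36.8% of the tested genes were called higher in Mo17 and 25.0% lower; at 10 °C the shares were 36.8% higher and 27.6% lower. The median log2 difference over all tested genes was 0.17 at 25 °C and 0.06 at 10 °C. The libraries of the lines did not overlap, with Mo17 higher, in 40.8% of the tested genes at 25 °C and 35.5% at 10 °C.

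The temperature contrast of akh2, which its selection did not use, did not pass in either line. In B73 all 3 libraries at 10 °C were lower than all 3 at 25 °C, and the log2 change was -0.82 ± 0.41 (SE; edgeR quasi-likelihood test, Benjamini-Hochberg adjusted p = 0.545 over 76 genes). The libraries of 11.8% of the tested genes lay apart in that direction, and 1.32% of the genes were called lower in B73. The B73 value owed much to replicate 2 at 10 °C, whose 0.21 FPKM was the lowest of the 12 libraries, and without it the log2 change was -0.44. Without replicate 1 at 10 °C it was -1.03. In Mo17 the libraries of the 2 temperatures overlapped, and the log2 change was -0.28 ± 0.38 (SE; edgeR quasi-likelihood, adjusted p = 0.764), where 2.63% of the tested genes were called lower. The Mo17 value moved to -0.09 without Mo17 at 25 °C replicate 3 and to -0.08 without Mo17 at 10 °C replicate 1.

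An exact permutation test of the FPKM values, 2-sided and 3 libraries against 3, gave p = 0.1 for akh2 in B73, the smallest p that this design allows, and p = 0.4 in Mo17. In a contrast that averages both lines, added once the values were known, the log2 change at 10 °C was -0.55 ± 0.28 (SE; edgeR quasi-likelihood, adjusted p = 0.338), against 9.21% of the tested genes called lower. Whether the cold response of akh2 differed between the lines was tested as the interaction, Mo17 minus B73, at 0.53 ± 0.56 on the log2 scale (SE; edgeR quasi-likelihood, adjusted p = 0.888). With 1 library left out at a time it ran from 0.16, without B73 at 10 °C replicate 2, to 0.79, without B73 at 10 °C replicate 3. None of the 76 genes (0%) was called for the interaction by edgeR, limma or DESeq2, and in edgeR 6 genes fell under 0.05 before adjustment. A change of akh2 with temperature was not detectable with 3 libraries per group, which does not show that its level was the same.

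ACR4 was an abundant transcript in every library. In B73 at 25 °C it stood at 126, 132 and 146 FPKM, and in B73 at 10 °C at 153, 172 and 193 FPKM. In Mo17 at 25 °C the libraries stood at 117, 97.8 and 92.0 FPKM, and in Mo17 at 10 °C at 120, 152 and 140 FPKM. In both lines each library at 10 °C was above each library at 25 °C, and at both temperatures each Mo17 library was below each B73 library, although at 10 °C the highest Mo17 library (151.72 FPKM) lay close under the lowest of B73 (152.89 FPKM). The libraries of 28.9% of the tested genes lay apart with Mo17 lower at 25 °C, and those of 25.0% at 10 °C.

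The means of ACR4 stood in the order B73 at 10 °C, 172 ± 19.8 FPKM (mean ± SD, n = 3 in this and the following groups), Mo17 at 10 °C, 137 ± 15.8 FPKM, B73 at 25 °C, 135 ± 10.6 FPKM, and Mo17 at 25 °C, 102 ± 13.3 FPKM. The 3 libraries of B73 at 25 °C lay within the range of those of Mo17 at 10 °C, so that these neighbours in the order did not differ beyond their spread. At 10 °C mean FPKM was 1.28-fold that at 25 °C in B73 and 1.34-fold in Mo17. The log2 changes were 0.35 ± 0.12 (SE) in B73 and 0.42 ± 0.12 (SE) in Mo17, given as a description, since the gene was chosen for them. Without B73 at 10 °C replicate 1 the log2 change in B73 was 0.43 ± 0.13 (SE).

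In the cold contrasts ACR4 ranked 8th from the highest of 76 genes in B73 and 4th in Mo17. The median log2 change over all tested genes was -0.05 in B73 and -0.02 in Mo17. In B73 ACR4 was the 1 tested gene (1.32%) with every library at 10 °C above every library at 25 °C, and in Mo17 it was among 6 (7.89%). These ranks and counts are a description, since ACR4 was chosen for its level at 10 °C. Another tested gene, abcf1, stood at 69.7, 105 and 107 FPKM in B73 at 10 °C, against 77.7 to 87.5 FPKM at 25 °C. The log2 change of abcf1 in B73 went from 0.20 to 0.38 without B73 at 10 °C replicate 1, the library that stood apart. The count of such genes was not made without that library. With 1 library left out at a time, the log2 change of ACR4 ran from 0.27 to 0.43 in B73 and from 0.34 to 0.53 in Mo17.

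The line contrast of ACR4, which was not used to choose it, passed at both temperatures. ACR4 was lower in Mo17 by a log2 difference of -0.40 ± 0.12 at 25 °C (SE; edgeR quasi-likelihood, adjusted p = 0.0151) and of -0.33 ± 0.12 at 10 °C (SE; edgeR quasi-likelihood, adjusted p = 0.0363). Mean FPKM in B73 was 1.32-fold that in Mo17 at 25 °C and 1.26-fold at 10 °C. The build named in the submitters' notes is that of B73. Its bearing on the line differences of ACR4 and akh2 was not tested. The exact permutation test of FPKM, 2-sided and 3 against 3, gave p = 0.1 at each temperature, the smallest p possible. Averaged over both temperatures, in a contrast likewise added later, the difference was -0.36 ± 0.09 (SE; edgeR quasi-likelihood, adjusted p = 0.00287), where 30.3% of the tested genes were called lower in Mo17.

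By size the line difference of ACR4 ranked 50th of 76 genes at 25 °C and 51st at 10 °C, where 25.0% and 27.6% of the tested genes were called lower in Mo17. The ACR4 line difference at 25 °C was lost without B73 at 25 °C replicate 3 (edgeR quasi-likelihood, adjusted p = 0.0621), Mo17 at 25 °C replicate 2 (0.0513) or Mo17 at 25 °C replicate 3 (0.0662), and over all alternatives the adjusted p spanned 0.000162 to 0.0662. The ACR4 line difference at 10 °C was lost without B73 at 10 °C replicate 2 (adjusted p = 0.0732) or 3 (0.152), without Mo17 at 10 °C replicate 1 (0.145) or 3 (0.0743), and in an edgeR fit of the 6 libraries at 10 °C alone (0.0615), within a range of 0.000737 to 0.152. Without B73 at 10 °C replicate 1, the library that stood apart, it was -0.41 (edgeR quasi-likelihood, adjusted p = 0.0153). The averaged difference kept its call with each library left out, at -0.42 to -0.32 (edgeR quasi-likelihood, adjusted p = 0.0011 to 0.00911).

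The size of the ACR4 line difference depended on the scaling, its sign did not. With TMM factors the median over the tested genes went from 0.17 to -0.09 at 25 °C and from 0.06 to -0.26 at 10 °C, and ACR4 stood at -0.66 and -0.65. They also changed the split of the called genes, from 28 higher and 19 lower to 26 and 27 at 25 °C, and from 28 and 21 to 22 and 32 at 10 °C. Relative to the median of all tested genes, ACR4 stood at -0.57 at 25 °C and -0.39 at 10 °C, a quantity that a change of scaling factors leaves nearly fixed by construction.

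No difference between the lines in the cold response of ACR4 was shown. The interaction, Mo17 minus B73, was 0.07 ± 0.17 on the log2 scale (SE; edgeR quasi-likelihood, adjusted p = 0.970), where no gene was called. It went to -0.01 without B73 at 10 °C replicate 1 and without Mo17 at 10 °C replicate 2, and to -0.0044 without Mo17 at 25 °C replicate 3.

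**Figure D2:**
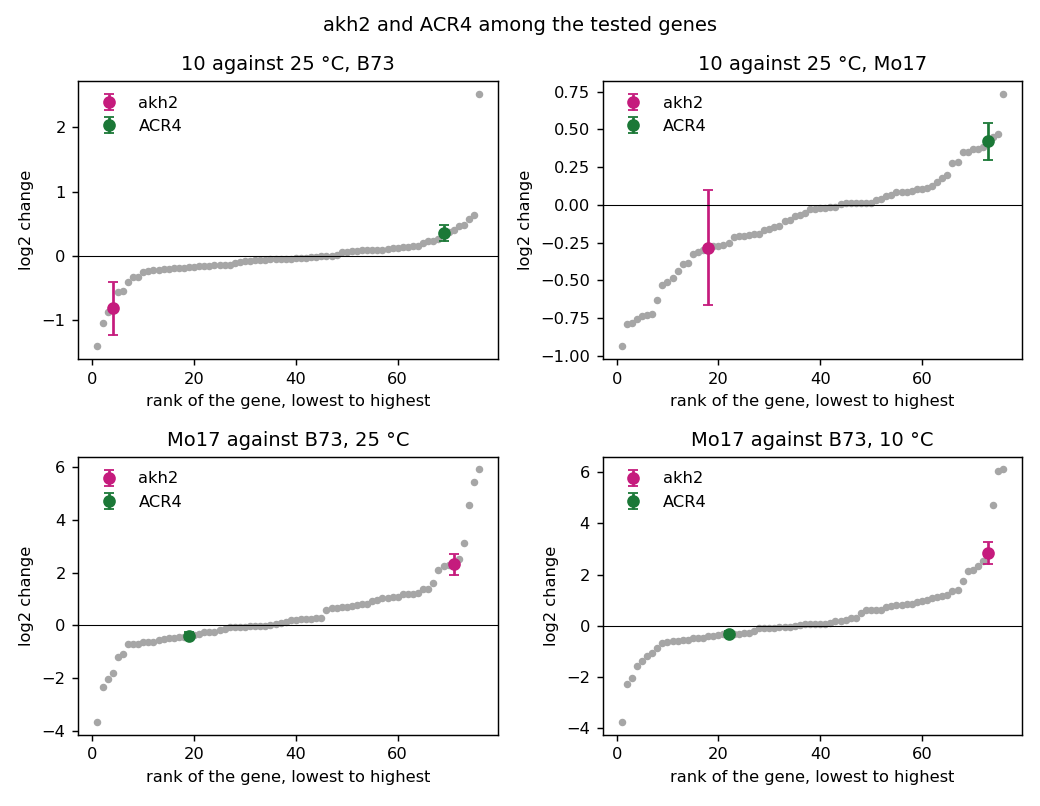
Log2 change of the 76 tested genes (grey points), ordered from the lowest to the highest, in the 2 temperature contrasts (top) and the 2 line contrasts (bottom), with akh2 and ACR4 in colour and their SE as bars; the vertical scale differs between panels. akh2 lies near the top of the line contrasts (2.31 and 2.85) and on the negative side of the temperature contrasts (-0.82 and -0.28), and ACR4 lies on the opposite side of 0 in each panel. Part of these signs was set by the choice of the genes.

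**Figure D3:**
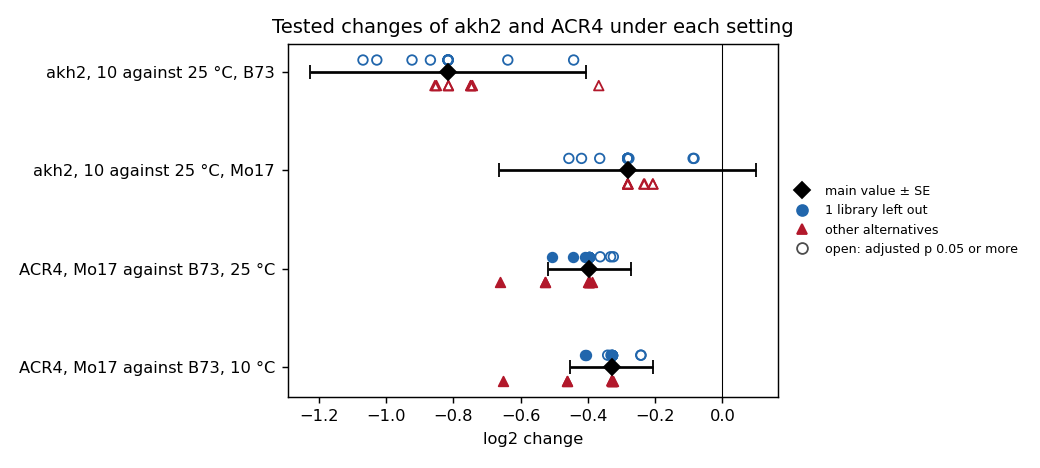
Log2 change of akh2 with temperature in each line and of ACR4 between the lines at each temperature (black diamonds with SE). Blue circles have 1 library left out at a time, and red triangles are the other alternatives. Open symbols have an adjusted p of 0.05 or more. The changes of akh2 at 10 °C are open throughout and run from -1.07 to -0.37 in B73, while those of ACR4 between the lines stay negative, from -0.66 to -0.24, with open and filled symbols.

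The signs of the 2 genes were opposite in each line contrast and each temperature contrast, with akh2 higher and ACR4 lower in Mo17, and at 10 °C with positive values of ACR4 and negative values of akh2, the latter below the threshold for a call. akh2 was chosen for its line difference and ACR4 for its level at 10 °C, so the choice itself set part of these signs. On the FPKM scale ACR4 was 138 times the level of akh2 in B73 at 25 °C and 317 times in B73 at 10 °C, against 21.0 times in Mo17 at 25 °C and 34.2 times in Mo17 at 10 °C. The ratio in B73 at 10 °C rests on a low akh2 mean of 0.543 ± 0.289 FPKM (SD), and the change of akh2 in B73 was not called. By mean FPKM ACR4 ranked 10th to 15th of the 99 genes over the 4 groups, and akh2 57th to 73rd. The replicate spread differed as well. The coefficient of variation of akh2 was 21.6% to 53.3% in the 4 groups, above the median of the tested genes (10.7% to 14.7%), and that of ACR4 was 7.84% to 13.0%.

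11 genes of the table are reported from the amino acid metabolism list, matched by symbol or annotation, akh2 and ACR4 among them, and 6 of the others were tested. als1 encodes an acetolactate synthase, which catalyses the step shared by valine, leucine and isoleucine synthesis and is the target of several herbicides. als1 stood at 122 ± 6.89 FPKM in B73 and 87.4 ± 8.59 FPKM in Mo17 at 25 °C (mean ± SD, n = 3 each), a log2 difference of -0.48 ± 0.11 (SE; edgeR quasi-likelihood, adjusted p = 0.00203). At 10 °C als1 had a log2 difference of -0.19 ± 0.11 (SE; edgeR quasi-likelihood, adjusted p = 0.148), and without B73 at 10 °C replicate 1 it was called at -0.29 ± 0.10 (SE; adjusted p = 0.0215). Reads that als1 shares with related genes could have been divided by the authors' counting.

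The other list members carry amino acid terms beside another main role. adh1 and adh2, alcohol dehydrogenases of fermentation, are annotated to tyrosine metabolism and were higher in Mo17, adh1 at a log2 difference of 2.09 ± 0.22 and adh2 at 4.56 ± 0.71 at 25 °C (SE; edgeR quasi-likelihood, adjusted p = 9.69e-06 and 0.000208). The adh2 libraries at 25 °C were uneven in Mo17, at 44.28, 6.1 and 46.94 FPKM, against 1.2 to 1.57 FPKM in B73. aldh2, a mitochondrial aldehyde dehydrogenase annotated to the breakdown of several amino acids, was lower in Mo17 at -2.33 ± 0.20 (SE; edgeR quasi-likelihood, adjusted p = 3e-06). adss1, annotated to purine and to alanine, aspartate and glutamate metabolism, had a log2 difference of 0.13 ± 0.15 (SE), and AMADH2, annotated as a betaine-aldehyde dehydrogenase, one of -0.02 ± 0.12 (SE), and neither passed.

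In all, 2 of these 6 genes were called higher and 2 lower in Mo17 at 25 °C, and 2 higher and 1 lower at 10 °C, where 36.8% of all tested genes were called higher at each temperature and 25.0% and 27.6% lower. Their median log2 difference was 0.05 and 0.18, against 0.17 and 0.06 for all tested genes. In the cold contrasts none of the 6 was called in B73 or Mo17 alone, and with both lines averaged adh1 and aldh2 were called lower, at -0.75 ± 0.15 and -0.51 ± 0.14 (SE; edgeR quasi-likelihood, adjusted p = 0.00968 and 0.032), against 9.21% of all tested genes. All 6 had negative values in B73, with a median of -0.38 against -0.05 for all tested genes, of which 46 of 76 were negative. In Mo17 4 of the 6 were negative, with a median of -0.08. Without B73 at 10 °C replicate 1 the 6 genes were again negative in B73, with a median of -0.32, and als1 joined the genes called lower in Mo17 at 10 °C, which made 2. The 3 list members left untested, the ethylene synthesis genes acco20, ACO31 and acs7, had group means of at most 0.7 FPKM.

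**Figure D4:**
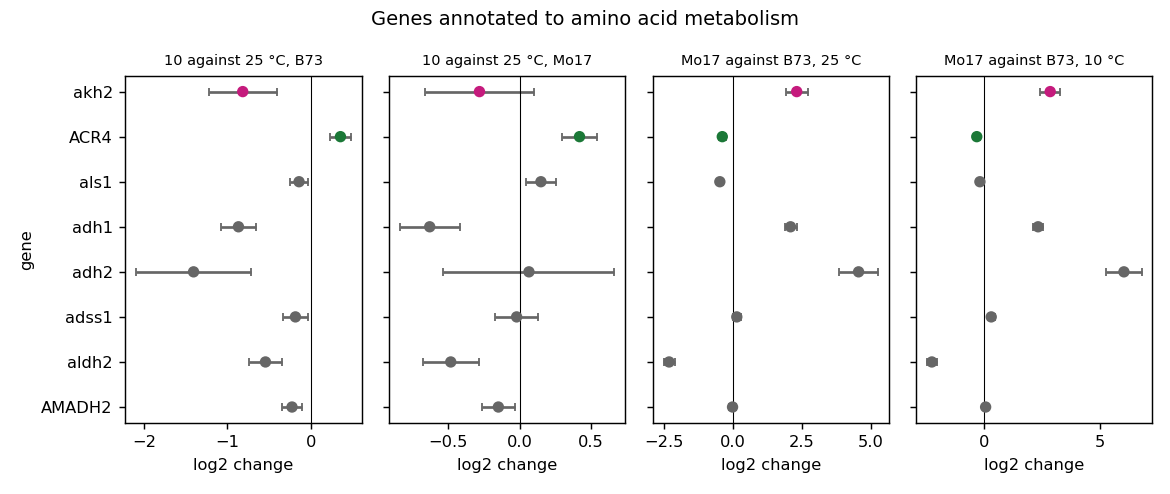
Log2 change with its SE of the 8 reported genes of the amino acid metabolism list in the 2 temperature contrasts and the 2 line contrasts, with akh2 and ACR4 in colour; the horizontal scale differs between panels. ACR4 is the 1 gene of the list with a positive value at 10 °C in B73. als1 and aldh2 lie on the same side as ACR4 in both line contrasts, aldh2 further out (-2.33 and -2.27).

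2 other genes of the table share with ACR4 the annotation to the response to cytokinin, a plant hormone of cell division. ACC1, an acetyl-CoA carboxylase of fatty acid synthesis, was higher in Mo17 at a log2 difference of 0.80 ± 0.20 at 25 °C and 0.82 ± 0.20 at 10 °C (SE; edgeR quasi-likelihood, adjusted p = 0.00457 and 0.00489). apx2, an ascorbate peroxidase, stood at 0.01 ± 0.09 and 0.07 ± 0.09 (SE) and did not pass. At 10 °C the log2 changes of ACC1 were -0.0019 in B73 and 0.01 in Mo17 and those of apx2 -0.08 and -0.02, where ACR4 stood at 0.35 and 0.42. Without B73 at 10 °C replicate 1, the change of ACC1 in B73 was -0.29 ± 0.15 (SE). akh2 and ACR4 themselves share the annotation to the chloroplast with 19 other genes reported here, all of them tested. Of these 19, 5 were called higher and 6 lower in Mo17 at 25 °C (36.8% and 25.0% over all tested genes) and 6 higher and 4 lower at 10 °C (36.8% and 27.6%). None was called at 10 °C against 25 °C in either line, where 1.32% of all tested genes in B73 and 2.63% in Mo17 were called lower and none higher; this set was formed after the values were seen.

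The profiles closest to each gene over the 12 libraries were found by the root mean square difference of log2(FPKM + 1), each gene centred on its own mean. This scale lessens the differences of low genes, akh2 among them. For akh2 they were acpt1, annotated as an acyl carrier protein (0.24), ae1_1, a starch branching enzyme (0.30), and AR3 (0.37), against a median of 0.86 over the tested genes. Like akh2, these 3 genes stood higher in Mo17 at both temperatures, acpt1 at 1.49 ± 0.221 FPKM in B73 and 8.63 ± 1.28 FPKM in Mo17 at 25 °C and ae1_1 at 0.417 ± 0.0777 and 3.62 ± 0.838 FPKM (mean ± SD, n = 3). Their log2 changes at 10 °C in B73 were -0.03 ± 0.18 for acpt1, 0.40 ± 0.29 for ae1_1 and 0.23 ± 0.13 for AR3 (SE). The change of akh2 there was -0.82. In Mo17 the 3 genes stood at -0.44 ± 0.18, -0.19 ± 0.28 and -0.19 ± 0.13 (SE), and akh2 at -0.28. The B73 changes went to -0.15, 0.41 and 0.16 without B73 at 10 °C replicate 1, and that of akh2 to -1.03. For ACR4 the closest were abcf1, annotated as a transporter ATPase (0.21), AI676903, annotated to DNA and mRNA binding and leaf senescence (0.21), and AI987507, described as an INDETERMINATE-related protein (0.22), against a median of 0.45. abcf1 had log2 differences between Mo17 and B73 of -0.39 ± 0.14 at 25 °C and -0.48 ± 0.14 at 10 °C (SE), and log2 changes at 10 °C of 0.20 ± 0.14 in B73 and 0.10 ± 0.14 in Mo17 (SE). AI676903 had line differences of -0.46 ± 0.10 and -0.30 ± 0.10 (SE), and at 10 °C log2 changes of -0.05 ± 0.10 in B73 and 0.12 ± 0.10 in Mo17 (SE). Without B73 at 10 °C replicate 1 the change in B73 was 0.38 ± 0.09 for abcf1 and -0.02 ± 0.10 for AI676903 (SE). AI987507 was a low transcript, with group means of 0.61 to 1.05 FPKM, so that the scale of the comparison lessens its differences too. It had line differences of -0.63 ± 0.30 at 25 °C and -0.04 ± 0.30 at 10 °C (SE). Its log2 changes at 10 °C were 0.14 ± 0.30 in B73, 0.02 ± 0.33 without that library, and 0.74 ± 0.30 in Mo17 (SE). Since the closest genes were picked for likeness, their values are a description.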

How the data were processed

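The authors deposited 1 table with a count and an FPKM per gene and library, per the file headers. Among the tools in the submitters' processing notes are StringTie 1.3.4d, HISAT2 2.0.4 and cutadapt 1.9, beside DESeq2 and edgeR, with B73 RefGen_v4 as the build; their roles, and any use of strand in counting, are not stated there. No deposited count is 1 or 2, and the smallest above 0 is 3, so 1 fragment may be worth several counts, and no counting intervals are given.

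Relative depth was the median ratio of count to FPKM over the 48 genes that reached 5 FPKM in every library, and single ratios deviated from it by at most 0.374%. edgeR 4.0.16 (R 4.3.3) took the counts and this depth as library size, in 1 model of 4 group means over 12 libraries. p-values are 2-sided and adjusted by Benjamini-Hochberg over 76 genes, with a threshold of 0.05. The procedure was tried on simulated data for the temperature contrast in B73 alone, which does not cover the line contrasts. Alternatives were TMM factors, median-ratio factors, DESeq2 1.42.0, limma 3.58.1 on log2(FPKM + 1) and log2(FPKM + 0.1), other filters, the 6 libraries of a contrast, a replicate block and each library left out. Replicate numbers did not pair the libraries: of 18 same-number pairs across groups, 4 had deviations from the group means that correlated above 0.1.

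The genes and lists were chosen with earlier results of these data known. The tested members of each list are named, except 1 gene that is not reported here and is left out of the list counts; the limit of 8 names per list was counted without akh2 and ACR4. Chromosome numbers come from matching transcripts to the RefSeq table of the NAM assembly, and positions from the deposited table.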

Additional observations from a re-analysis of the deposited data

How the results depend on the processing

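The ACR4 line difference ran from -0.51 to -0.32 at 25 °C and from -0.41 to -0.24 at 10 °C with 1 library left out at a time. At 10 °C its call was lost with the replicate block (-0.33, adjusted p = 0.0576, edgeR quasi-likelihood) and in the fit of 6 libraries (-0.33). The block left each other call of akh2 and ACR4 as it was; replicate numbers did not pair the libraries, and a library's deviation correlated best with its own number in 11 of 36 comparisons with another group. The ACR4 interaction ran from -0.012 to 0.18 with 1 library left out. The akh2 line difference was 1.56 at 25 °C and 1.70 at 10 °C with limma on log2(FPKM + 1), a scale that lessens differences of low genes, and 2.12 to 2.49 and 2.47 to 3.10 with 1 library left out. The cold response of akh2 stayed negative and uncalled under every alternative that tested it, and with a filter of FPKM 5 in 3 libraries akh2 was not tested. Genes called at 10 °C in B73 numbered 1, against 0 with TMM factors and with median-ratio factors, 3 with DESeq2, 2 with the replicate block, 2 in the fit of 6 libraries and 0 to 2 with 1 library left out. In Mo17 they numbered 2, against 4 with median-ratio factors, 5 with DESeq2, 1 with the replicate block, 0 in the fit of 6 libraries and 0 to 5 with 1 library left out. The cause of these changes was not tested. The akh2 interaction ran from 0.16 to 0.79 with 1 library left out and was 0.14 with limma on log2(FPKM + 1). The deposited counts of akh2 were 24 to 126 in B73, and absolute depth is unknown.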
